A study of Danio rerio with 12 samples.

Results

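Thyroid hormone reaches liver cells from the blood, is switched on and off there by deiodinases, and acts through nuclear receptors. Genes of these 3 roles were followed in livers of adult zebrafish: the transport protein gene ttr, the deiodinase genes dio1, dio2, dio3a and dio3b, and the receptor genes thraa, thrab and thrb. Members were the rows of the deposited expression table whose gene name equalled one of these 8 symbols. The table lists 32520 genes, and 7 of the 8 symbols had a row. No row carried the symbol dio3a, which is not analysed here. Expression had been measured by RNA sequencing in 12 liver libraries, 3 in each of 4 groups. The groups were females kept with bisphenol AF (BPAF), females kept with the solvent dimethyl sulfoxide (DMSO), males kept with BPAF and males kept with DMSO. All fish were wild type, of the TU strain and 4 months old, and the exposure lasted 28 days. BPAF is a fluorinated analogue of bisphenol A and was given at 10 µg/L, while the control fish had 0.0001% DMSO. The labels give no DMSO level for the exposed fish, so BPAF and any effect of unequal solvent cannot be told apart. Nor do they tell separate fish from pools within a group, so p-values reflect the spread among these particular samples and that spread may be technical.

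The thyroid gland releases mainly thyroxine, a prohormone that transthyretin and other plasma proteins carry in the blood. Deiodinases are selenocysteine enzymes that remove iodine from the hormone: type 2 makes the active triiodothyronine, type 3 inactivates both forms, and type 1 can act on either ring. The receptors sit on DNA as partners of retinoid X receptors, hold genes down with corepressors when empty and raise them when hormone binds. The liver is a main site of transthyretin synthesis and of hormone deiodination, conjugation and clearance. In zebrafish the type 3 deiodinase and the alpha receptor each exist as a pair of duplicate genes, and the sources used here do not say how reads were split between such copies.

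Values are taken as TPM, the share of a library's transcripts that a gene holds, a level scaled by the length of the gene and the sum of the library. The listed genes of a library summed to between 978504.61 and 992375.41 TPM, and the sequencing depth is unknown because TPM keep no depth. At or above 1 TPM there were 7007 to 9217 genes in female libraries and 9108 to 12313 in male libraries. BPAF males had 12313, 10198 and 10373 such genes (replicates 1, 2 and 3) and DMSO males 9952, 9842 and 9108, without overlap. The egg yolk precursor genes followed the sex labels: the 7 vitellogenin genes took 19.5% to 25.7% of all TPM in female libraries and 0.00115% to 0.0108% in male libraries. Because every library sums to about the same total, that share lowers the TPM of the remaining female genes. The estrogen receptor gene esr1 averaged 26.2 ± 3.47 TPM in females and 0.472 ± 0.150 TPM in males (SD, n = 6 each). Of 15 rows of hepatocyte marker genes (hp had 2 rows), 0 were at 0 TPM in any library.

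The transport protein gene ttr (ENSDARG00000037191) was the most abundant member and was lower in female than in male livers. It stood at 106.85, 104.78 and 66.3 TPM in BPAF females (replicates 1, 2 and 3) and at 75.27, 143.08 and 77.49 TPM in DMSO females. In BPAF males it stood at 561.58, 271.63 and 186.3 TPM, and in DMSO males at 459.22, 269.67 and 252.38 TPM. All 6 female libraries lay below all 6 male libraries, while exposed and control fish overlapped within each sex. The mean was 95.6 ± 28.5 TPM in females and 333.5 ± 144 TPM in males (SD, n = 6 each, 2-sided exact permutation test over libraries, p = 0.00216, the lowest this design can give). That test took all 12 libraries as independent, without regard to treatment or replicate number. If same-numbered male libraries are paired, it overstates the number of independent units. In bulk tissue, fewer cells of a type and less RNA per cell cannot be told apart. The fitted difference, female minus male over both treatments, was -1.74 ± 0.30 on the log2(TPM + 1) scale (SE, limma adjusted p = 0.00078).

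The type 1 deiodinase gene dio1 (ENSDARG00000042112) showed the same order of the sexes. Its values were 20.34, 22.87 and 25.49 TPM in BPAF females and 19.0, 27.6 and 41.72 TPM in DMSO females. They were 50.29, 121.16 and 102.68 TPM in BPAF males and 46.67, 115.9 and 58.01 TPM in DMSO males. The highest female library, DMSO replicate 3, lay below the lowest male library, DMSO replicate 1. The mean was 26.2 ± 8.25 TPM in females and 82.5 ± 34.5 TPM in males (SD, n = 6 each), with a difference of -1.56 ± 0.30 (log2, SE, limma adjusted p = 0.00137).

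The type 2 deiodinase gene dio2 (ENSDARG00000094857), whose product makes the active hormone, was expressed at about the level of dio1. BPAF females had 43.24, 21.19 and 19.57 TPM and DMSO females 20.11, 34.75 and 9.47 TPM. BPAF males had 201.88, 67.81 and 36.47 TPM and DMSO males 78.44, 60.91 and 55.66 TPM. Here the sexes overlapped among exposed fish, since BPAF female replicate 1 lay above BPAF male replicate 3, and not among control fish. The mean was 24.7 ± 12.1 TPM in females and 83.5 ± 59.6 TPM in males (SD, n = 6 each), and the difference was -1.64 ± 0.42 (log2, SE, limma adjusted p = 0.00627). BPAF male replicate 1, at 201.88 TPM, was the highest library of this gene and also the highest of ttr. Markers of brain and glia, tissues known for type 2 deiodinase, summed to 0 TPM in every female library and to between 0 and 0.54 TPM in male libraries, over 4 genes.

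The type 3 deiodinase gene dio3b (ENSDARG00000095767), whose product inactivates the hormone, was near 0 in females and at a few TPM in males. It was listed at 0.06, 0.03 and 0.03 TPM in BPAF females and at 0.14, 0 and 0.11 TPM in DMSO females. In BPAF males it stood at 2.27, 1.68 and 3.89 TPM, and in DMSO males at 9.69, 4.08 and 5.2 TPM. The lowest male library was at 1.68 TPM and the highest female library at 0.14 TPM. The mean was 0.0617 ± 0.0535 TPM in females and 4.47 ± 2.86 TPM in males (SD, n = 6 each), a level 72.5 times higher in males. That ratio rests on female values of 0.14 TPM or less at unknown depth, so its size is uncertain. The difference on the log2(TPM + 1) scale, which understates the change of low genes, was -2.22 ± 0.21 (SE, limma adjusted p = 3.98e-05). The gene met the filter on low values (1 TPM in 3 libraries) through its male libraries alone, so some sex difference was built into its being tested.

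Receptor genes were expressed at a few TPM. The alpha receptor gene thraa (ENSDARG00000000151) had 2.8, 1.4 and 1.4 TPM in BPAF females, 2.24, 1.98 and 2.72 in DMSO females, 2.02, 4.94 and 4.94 in BPAF males, and 3.8, 2.13 and 3.88 in DMSO males. The sexes overlapped, and the difference of -0.55 ± 0.23 (log2, SE, limma adjusted p = 0.0528) did not pass. The beta receptor gene thrb (ENSDARG00000021163) had 0.73, 1.49 and 0.86 TPM in BPAF females, 0.4, 1.04 and 1.43 in DMSO females, 3.19, 2.8 and 1.45 in BPAF males, and 2.19, 5.2 and 0.91 in DMSO males. Its sexes overlapped too, with the lowest male library, DMSO replicate 3, inside the female range, and the difference was -0.79 ± 0.28 (log2, SE, limma adjusted p = 0.0307). This thrb call was lost without BPAF male replicate 1 (adjusted p = 0.0666), BPAF male replicate 2 (0.0588), DMSO male replicate 2 (0.0631), BPAF female replicate 1 (0.0569), BPAF female replicate 3 (0.0615) or DMSO female replicate 1 (0.0753), and without the filter on low values (0.0612). Leaving out BPAF male replicate 1 (0.0114), DMSO male replicate 2 (0.0340) or BPAF female replicate 1 (0.0272) made thraa pass as lower in females.

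The second alpha receptor gene, thrab (ENSDARG00000052654), was listed at 0 in all 6 DMSO libraries and in BPAF female replicates 1 and 3. It had 0.08 TPM in BPAF female replicate 2 and 0.17, 0.03 and 0.08 TPM in BPAF males. It failed the filter, and no fold change is given against libraries at 0. Each BPAF male library lay above each DMSO male library (2-sided exact permutation test, p = 0.1, the lowest possible with 20 splits).

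**Figure D1:**
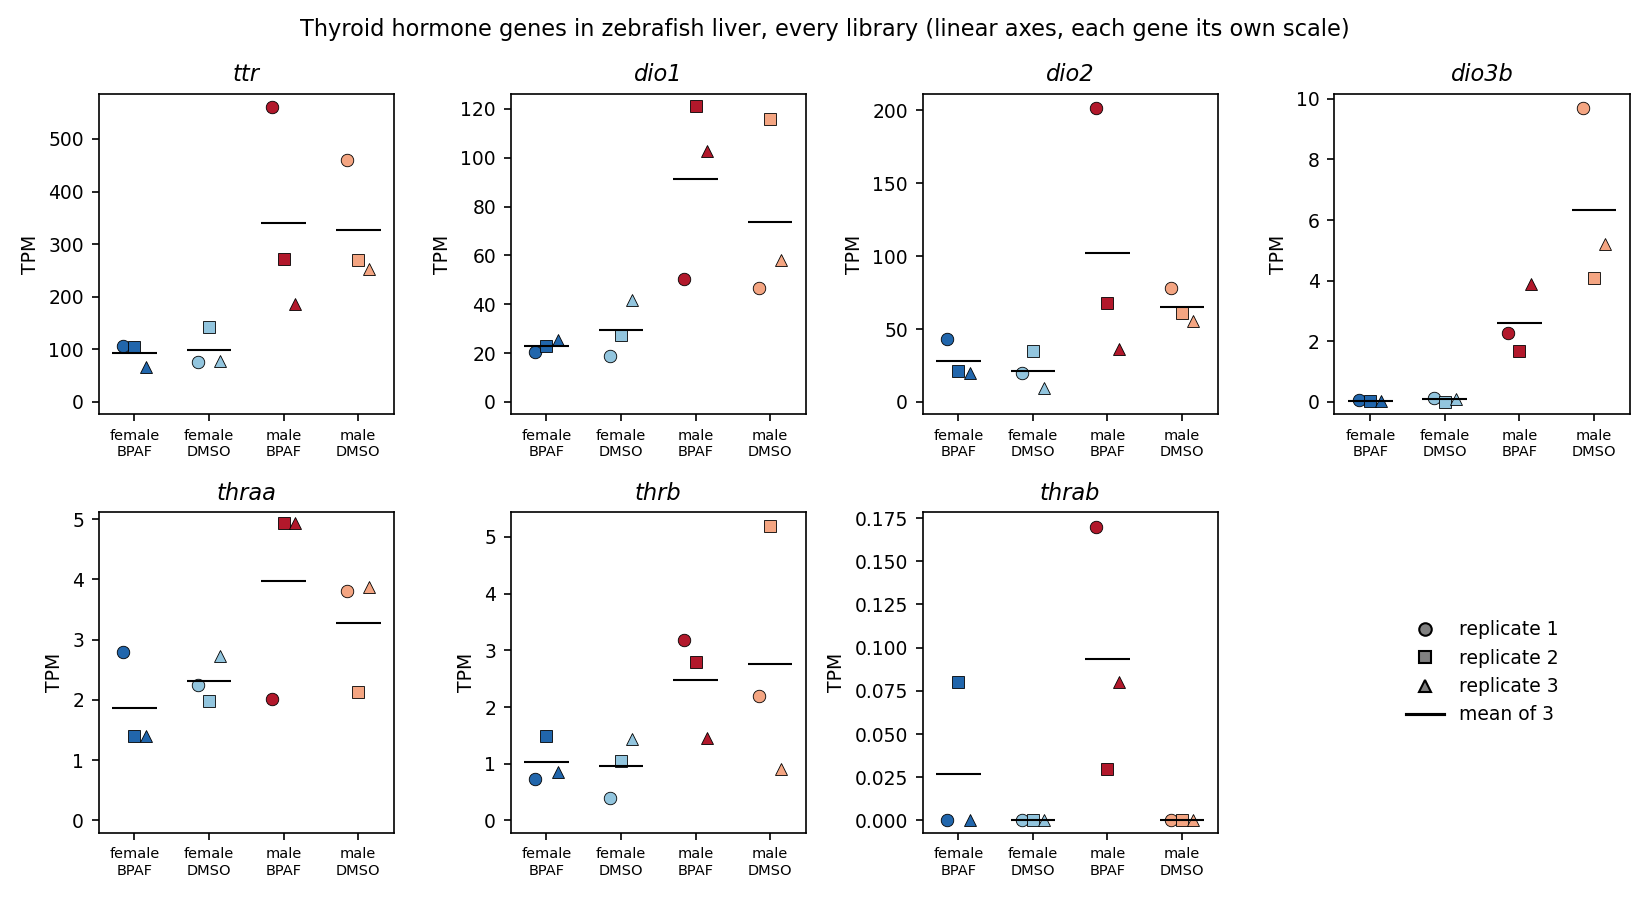
TPM of the 7 thyroid hormone genes (linear vertical axes, a separate scale for each gene) in the 12 liver libraries, by sex and treatment, with circles, squares and triangles for replicates 1, 2 and 3 and a line at the mean of 3. The female libraries of ttr, dio1 and dio3b all lie below the male libraries, while dio2, thraa and thrb overlap between the sexes.

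Over both treatments, 5 of the 6 tested members (ttr, dio1, dio2, dio3b and thrb) passed the limma test at an adjusted p under 0.05, all lower in females. Over all 11389 genes tested, 59.4% passed in this comparison and 55.4% were lower in females, so lower female values were common among all genes. How many of all genes separated the sexes without overlap, as ttr, dio1 and dio3b did, was not counted. The median of all genes tested was a difference of -0.66 (log2). The call of dio3b, here and within each treatment, is for a gene that met the filter through its male libraries alone. Some sex difference was thus built into its being counted. Among control fish alone, DMSO females against DMSO males, 2 of 6 members passed (ttr at -1.73 ± 0.42 and dio3b at -2.69 ± 0.30, log2 ± SE, limma adjusted p = 0.0162 and 0.000389), against 23.3% of all genes (21.2% lower in females). In that comparison dio1 (-1.25 ± 0.42, adjusted p = 0.0505) and dio2 (-1.71 ± 0.59, 0.0547) fell just short, and the ttr call was lost without DMSO male replicate 1 (0.0616), DMSO female replicate 1 (0.0687) or DMSO female replicate 3 (0.0517). Several single libraries also decided the calls of dio1 and dio2, which passed without BPAF male replicate 1 (0.0305 for dio1 and 0.0227 for dio2). In addition, dio1 passed without DMSO female replicate 3 (0.0481), dio2 without BPAF male replicate 3 (0.0360) or DMSO female replicate 2 (0.0427), and thrb without DMSO male replicate 3 (0.0372).

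Among exposed fish, BPAF females against BPAF males, 4 of 6 members passed, against 47.6% of all genes (45.7% lower in females). These were dio1 (-1.86 ± 0.42), dio2 (-1.57 ± 0.59), dio3b (-1.75 ± 0.30) and ttr (-1.74 ± 0.42), each as log2 ± SE, with limma adjusted p of 0.00653, 0.0469, 0.00234 and 0.00874. Here too dio3b had met the filter through its male libraries alone. The dio2 call was lost without BPAF male replicate 1 (adjusted p = 0.196), BPAF male replicate 2 (0.0685), BPAF female replicate 2 (0.119), BPAF female replicate 3 (0.138), DMSO female replicate 1 (0.0577) or any of the 3 DMSO males (0.0552, 0.0564 and 0.0542). It was also lost without the filter on low values (0.0829) and with only these groups in the fit (0.0584). Without BPAF male replicate 1 (0.0225) or BPAF female replicate 1 (0.0362), thraa passed as lower in females. Whether the sex difference itself changed with BPAF is the interaction, which passed for 0 of the 6 members, against 0% of all genes.

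How far the members stood below the male level depended on how libraries were put on a common scale. Over both treatments, trimmed-mean scaling gave a dio3b difference of -1.88 ± 0.20, quantile normalization one of -1.70 ± 0.21 and leaving out the vitellogenins one of -2.21 ± 0.21 (log2 ± SE). In this comparison dio3b passed under all 19 alternatives that tested it, with limma adjusted p from 1.03e-05 to 0.00038. The filter at 5 TPM left it untested. Apart from the fit without a filter, it entered each of these fits through its male libraries alone. Some sex difference was thus built into those passes. The size of the difference moved with the pseudocount, from -4.67 with 0.1 TPM added to -0.85 with 5 TPM added over both treatments. With the same pseudocounts it was -5.13 and -1.12 in DMSO fish and -4.20 and -0.58 in BPAF fish. The ttr difference also passed under all 20 of its alternatives, with adjusted p of 0.0223 under trimmed-mean scaling and 0.0418 under quantile normalization. The calls of dio1 and dio2 were lost under trimmed-mean scaling (adjusted p = 0.184 and 0.116) and under quantile normalization (0.21 and 0.177). The thrb call was lost under both (0.497 and 0.582), and thraa turned to 0.06 and 0.09 (log2), above 0. Under these scalings the median of all genes moved to -0.06 and -0.01, 2 of 6 members passed, and 3083 and 3026 of 11389 genes passed. Within each treatment dio3b was the member that kept its call under both rescalings. In BPAF fish dio1 and dio2 lost theirs, and ttr lost its call in BPAF fish (0.266 and 0.232) and in DMSO fish (0.0625 and 0.152). Leaving out the vitellogenins moved the median of all genes over both treatments only to -0.44 (log2). With that change ttr missed in DMSO fish (0.0631), dio2 in BPAF fish (0.137) and thrb over both treatments (0.117).

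**Figure D2:**
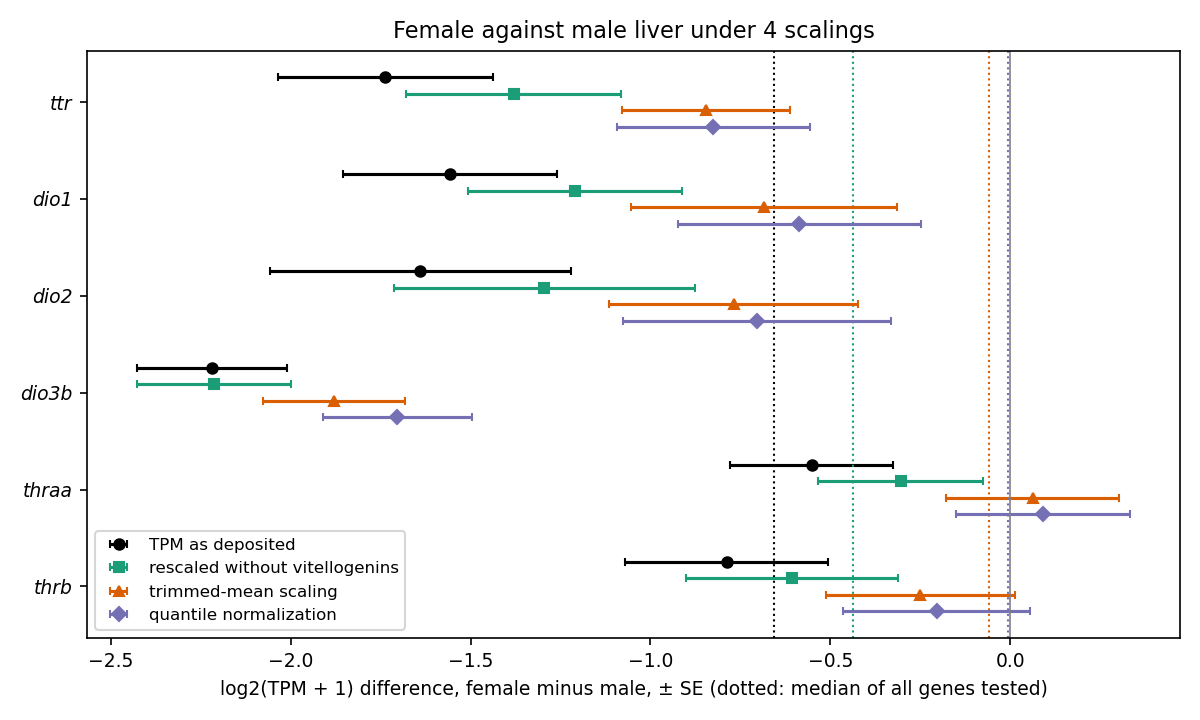
Difference in log2(TPM + 1), female minus male over both treatments, for the 6 tested members under 4 scalings, with bars for the SE and dotted lines for the median of all genes tested under each scaling. The dio3b points stay between -2.22 and -1.70 under all 4, while thraa lies at -0.55 with deposited TPM and at 0.06 and 0.09 under the trimmed-mean and quantile scalings.

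Ratios between members within a library do not depend on the library scale. Per 1000 TPM of dio1, dio3b stood at 1.18 to 2.95 in BPAF females, 0 to 7.37 in DMSO females, 13.9 to 45.1 in BPAF males and 35.2 to 207.6 in DMSO males. All 6 female ratios lay below all 6 male ratios. Per 1000 TPM of ttr, dio3b stood at 0.29 to 0.56 in BPAF females and 0 to 1.86 in DMSO females. In males it stood at 4.04 to 20.9 with BPAF and 15.1 to 21.1 with DMSO, again without overlap between the sexes. As a share of the summed TPM of dio1, dio2 and dio3b, dio3b made up 0.0665% to 0.0943% in BPAF females, 0% to 0.357% in DMSO females, 0.881% to 2.72% in BPAF males and 2.26% to 7.19% in DMSO males. Every female library had dio3b at 0.14 TPM or less, and the gene met the filter through its male libraries alone. Low female ratios of dio3b to more abundant genes follow from those levels and are no separate support for a sex difference. How many ratios of other genes separate the sexes was not counted. The ratios that did not involve dio3b overlapped between the sexes. The ratio of dio2 to dio1 was 2.13, 0.927 and 0.768 in BPAF females, 1.06, 1.26 and 0.227 in DMSO females, 4.01, 0.560 and 0.355 in BPAF males, and 1.68, 0.526 and 0.960 in DMSO males. The share of thrb in the summed receptor TPM was 15.2% to 50.2% in female and 19.0% to 70.9% in male libraries. Summed over the 3 deiodinase genes, the level was 39.3 to 63.6 TPM in females and 118.9 to 254.4 TPM in males, without overlap. Unlike the ratios, this sum depends on the library scale. How many of all genes separated the sexes in this way was not counted.

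**Figure D3:**
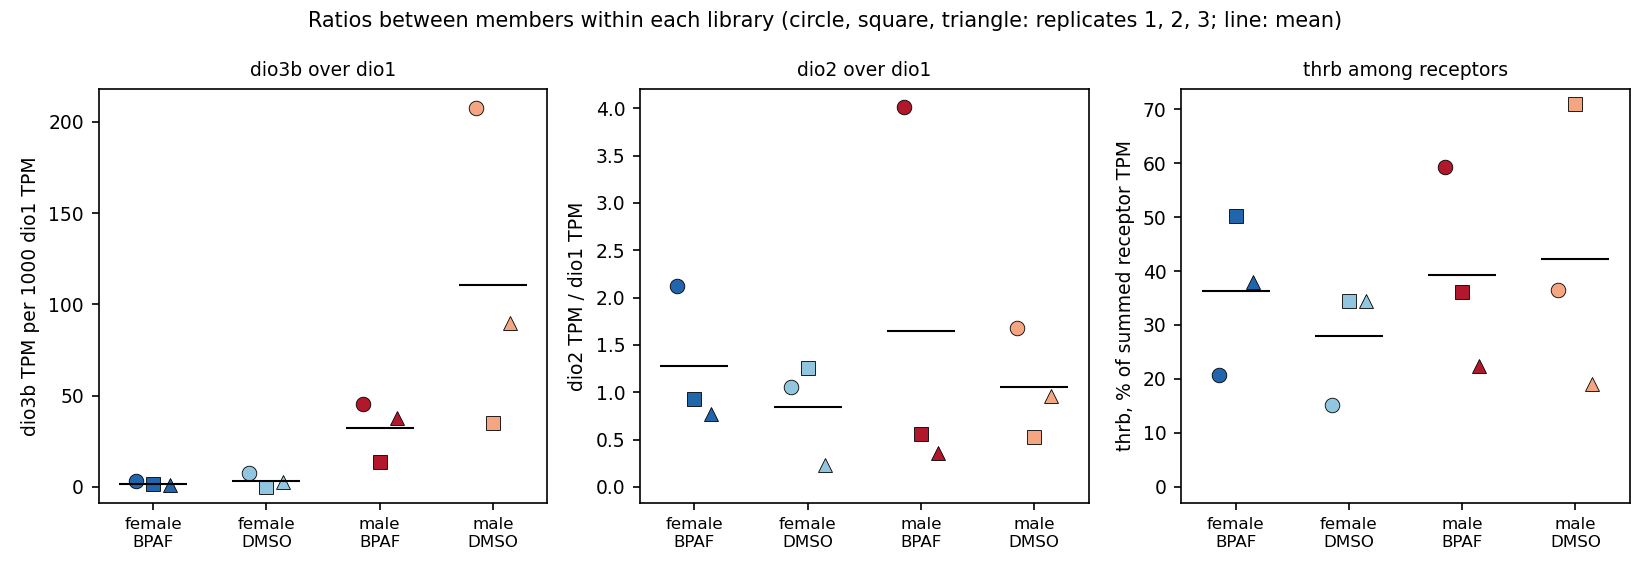
Ratios between members within each library, by sex and treatment: dio3b per 1000 TPM of dio1, dio2 over dio1, and thrb as a percent of the summed receptor TPM, with circles, squares and triangles for replicates 1, 2 and 3 and a line at the mean. Female libraries of the dio3b ratio lie at 7.37 or below and male libraries at 13.9 or above, and the other ratios overlap between the sexes.

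BPAF against DMSO gave no call among the members in either sex. In males, 0 of 6 members passed, against 0.0527% of all genes (6 of 11389, or 2 once replicate numbers entered as blocks). The labels do not say what these numbers mark. They were read as pairing males only because same-numbered male libraries deviated together in these same data. In females, 0 of 6 passed, against 0% of all genes, and the same counts held for the interaction. At an unadjusted p under 0.05, 1 of 6 members and 722 of 11389 genes stood out in males, 0 members and 157 genes in females, and 1 member and 368 genes in the interaction.

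The member with the lowest p in males was dio3b. Its level was 2.61 ± 1.14 TPM in BPAF males and 6.32 ± 2.97 TPM in DMSO males (SD, n = 3 each). The 3 BPAF libraries all lay below the 3 DMSO libraries, with BPAF replicate 3 at 3.89 TPM just under DMSO replicate 2 at 4.08 TPM. Its ratios to ttr and dio1, which do not depend on the library scale, overlapped between these groups. Per 1000 TPM of ttr, dio3b stood at 4.04, 6.185 and 20.88 with BPAF and 21.1, 15.13 and 20.6 with DMSO. Per 1000 TPM of dio1, BPAF replicate 1 at 45.1 lay above DMSO replicate 2 at 35.2. How many of all genes separate on deposited TPM was not counted. In same-numbered pairs the exposed male was lower by 7.42, 2.4 and 1.31 TPM. The difference was -0.99 ± 0.30 (log2, SE, limma adjusted p = 0.665, and 0.353 with the block) and did not pass. By p it ranked 97 among 11389 genes. It kept its sign under all 20 alternatives, between -1.23 and -0.55, with adjusted p from 0.315 to 1.0. In females dio3b was at 0.14 TPM or less in every library, and the difference was -0.06 ± 0.30 (log2, SE, limma adjusted p = 1). The interaction, female minus male, was 0.93 ± 0.42 (log2, SE, unadjusted p = 0.0459, limma adjusted p = 0.995). Female levels near 0 leave little room for a lower value on this scale. The log2 ratio of dio1 to dio3b, each with 1 TPM added, was 4.52 ± 0.18 in BPAF females, 4.75 ± 0.57 in DMSO females, 4.63 ± 0.79 in BPAF males and 3.31 ± 1.19 in DMSO males (SD, n = 3 each), and male values were 3.97, 5.51 and 4.41 with BPAF against 2.16, 4.52 and 3.25 with DMSO. With 0.1 TPM added in place of 1, the females stood at 7.36 with either treatment, above BPAF males at 5.06 and DMSO males at 3.50, so the order of the sexes in this ratio depends on the added value.

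For the other 5 tested members, exposed and control libraries overlapped in both sexes. In males the differences (log2 ± SE) were 0.33 ± 0.42 for dio1, 0.30 ± 0.59 for dio2, 0.18 ± 0.32 for thraa, 0.02 ± 0.40 for thrb and -0.05 ± 0.42 for ttr, with limma adjusted p from 0.858 to 0.992. In females they were -0.29 ± 0.42 for dio1, 0.45 ± 0.59 for dio2, -0.24 ± 0.32 for thraa, 0.07 ± 0.40 for thrb and -0.06 ± 0.42 for ttr, each with an adjusted p of 1. Under trimmed-mean scaling, which moved the median of all genes in males to -0.07 against 0.24 with deposited TPM, the male differences of dio1, dio2, thraa and thrb lay at -0.09, -0.12, -0.10 and -0.25, on the other side of 0. Under quantile normalization thraa and thrb did so too, at -0.08 and -0.22. A log2 difference of 1 for dio2 lies within 2 SE of the estimate in each sex. Same-numbered male pairs differed in how close they lay. In replicate 2, dio1 stood at 121.16 TPM with BPAF and 115.9 TPM with DMSO, and ttr at 271.63 and 269.67 TPM. In replicate 1 they stood at 50.29 and 46.67 TPM for dio1 and 561.58 and 459.22 TPM for ttr. Replicate 3 had dio1 at 102.68 and 58.01 TPM and ttr at 186.3 and 252.38 TPM. For dio2 the pairs disagreed, with BPAF minus DMSO at 123.4, 6.9 and -19.19 TPM in males and 23.13, -13.56 and 10.1 TPM in females.

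**Figure D4:**
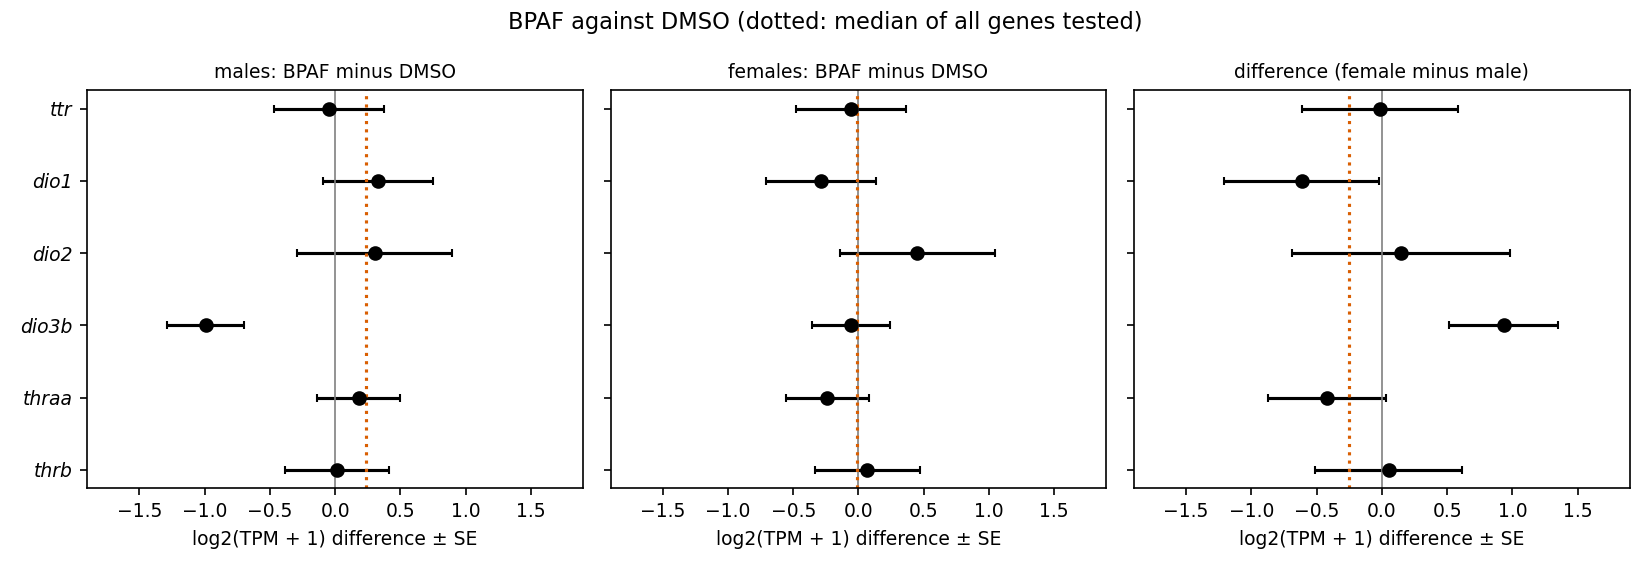
Difference in log2(TPM + 1) with SE bars for the 6 tested members, BPAF minus DMSO in males, BPAF minus DMSO in females, and the difference between these (female minus male), with a dotted line at the median of all genes tested. The male dio3b point lies at -0.99, apart from the remaining male points between -0.05 and 0.33, and none passed the adjusted test.

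By level per length, ttr led in all 4 groups, followed by dio1 and dio2, which overlapped in every group. In BPAF males, ttr and dio2 overlapped as well. After them came thraa in BPAF females, DMSO females and BPAF males. In DMSO males dio3b held that place, at 6.32 ± 2.97 TPM, above thraa at 3.27 ± 0.99 TPM without overlap (SD, n = 3 each). In BPAF males dio3b at 2.61 ± 1.14 TPM overlapped both thraa at 3.97 ± 1.69 and thrb at 2.48 ± 0.91 TPM. In females dio3b ranked below thrb without overlap. Ranked among all 32520 listed genes by mean TPM, ttr stood at place 408 in females and 295 in males. The place of dio1 was 917 in females and 692 in males, that of dio2 was 960 in females and 686 in males, and that of dio3b was 17179 in females and 5131 in males.

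The genes most like a member were those with the smallest root mean square difference between centred log2(TPM + 1) profiles over the 12 libraries, among 9286 tested genes with a descriptive symbol. The closest to ttr was mpc1, for a subunit of the mitochondrial pyruvate carrier (0.20 log2 units), and the closest to dio1 was tmc5 (0.23). For dio2 it was TMEM120A (0.30), followed by aqp10a, for an aquaglyceroporin (0.35). For dio3b it was agxtb, for an alanine-glyoxylate aminotransferase (0.41), then the amino acid transporter gene slc38a3a (0.41) and the glutathione peroxidase gene gpx4a (0.44), itself a selenoprotein. The closest to thrb was the nuclear receptor gene ppardb (0.17). Profiles of dio3b and slc38a3a shared very low female levels: slc38a3a had 0.24, 0.01 and 0.01 TPM in BPAF females, 0.1, 0.02 and 0.02 in DMSO females, 4.13, 5.15 and 3.13 in BPAF males, and 8.14, 6.44 and 4.91 in DMSO males. Its exposed and control males overlapped, since BPAF replicate 2 at 5.15 TPM lay above DMSO replicate 3 at 4.91 TPM. These likenesses carry the sex difference and the shared scale of each library, and they are descriptions without a test.

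Genes that neighbour the members in the GRCz12tu annotation, used here for gene order only, had levels of their own. Neighbours were the nearest protein-coding genes on each side whose symbol had a row, so genes in between may have been skipped. The gene LOC141378968, which overlaps thrb, had no row. The gene glis1b, which overlaps dio1, was at 0 TPM in all female libraries and at 0 to 0.13 TPM in male libraries. The genes beside dio3b, slc25a47a and ppp2r5cb, averaged 0.708 and 2.55 TPM in females and 2.15 and 4.75 TPM in males. Their lowest female libraries stood at 0.26 and 1.47 TPM, above the 0.14 TPM that dio3b reached in females. Beside thrb, nr1d2b had a mean of 5.81 TPM over female and 12.5 TPM over male libraries, while top2b had 5.62 TPM over female and 20.6 TPM over male libraries.

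Other genes of the pathway were followed in lists by role, and the count of each stands against 55.4% of all genes that passed as lower in females. Counts under trimmed-mean scaling stand against 1682 lower and 1401 higher of all 11389 genes tested. Those under quantile normalization stand against 1441 lower and 1585 higher. Of the 6 tested membrane transporter genes, all 6 passed as lower in females over both treatments, with a median of -0.91 against -0.66 over all genes tested (log2). They were led by the organic anion transporter genes slco1d1 (-1.54 ± 0.22, limma adjusted p = 0.000308) and slco2b1 (-1.40 ± 0.28, 0.00162), followed by slc7a8a (-0.92 ± 0.24, 0.00723), for an amino acid transporter. The slco1d1 level was 39.0 ± 11.8 TPM in BPAF females, 38.6 ± 3.85 in DMSO females, 121.6 ± 26.8 in BPAF males and 111.2 ± 38.7 in DMSO males (SD, n = 3 each). Under trimmed-mean scaling and under quantile normalization 2 of the 6 passed, slco1d1 and slco2b1 in each.

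Enzymes that tag the hormone with sulfate or glucuronide for excretion were next. Of 11 tested conjugation genes, 7 passed as lower in females and 0 as higher, against 55.4% of all genes lower, with a median of -1.51 against -0.66 over all genes (log2). The sulfotransferase gene sult1st4 averaged 7.94 ± 2.95 TPM in BPAF females, 9.12 ± 0.836 in DMSO females, 52.9 ± 5.52 in BPAF males and 46.5 ± 11.6 in DMSO males (SD, n = 3 each), a difference of -2.42 ± 0.21 (log2, SE, limma adjusted p = 2.32e-05). The glucuronosyltransferase gene ugt5b4 differed by -2.13 ± 0.28, sult1st5 by -1.63 ± 0.24 and ugt1b5 by -1.65 ± 0.29 (adjusted p = 0.000191, 0.000318 and 0.000825). These 4 also passed under trimmed-mean scaling and under quantile normalization, and under quantile normalization 1 gene, ugt2a4, passed as higher in females.

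Of 12 tested receptor partners and coregulators, 8 passed as lower in females, with a median of -0.62, close to the -0.66 of all genes. Examples were tbl1xr1a, for a corepressor subunit (-0.80 ± 0.16, adjusted p = 0.00151), the retinoid X receptor gene rxrgb (-0.92 ± 0.22, 0.00443) and the histone deacetylase gene hdac3 (-0.72 ± 0.19, 0.00806). Under trimmed-mean scaling and quantile normalization 0 passed as lower and 1, rxrga, as higher. Of 10 tested genes known to respond to thyroid hormone in vertebrates, 5 passed as lower in females, against 55.4% of all genes, with a median of -0.71. The malic enzyme gene me1, a classic hormone target in mammals, had 1.55 ± 0.791 TPM in BPAF females, 1.12 ± 0.611 in DMSO females, 62.0 ± 71.0 in BPAF males and 50.7 ± 36.8 in DMSO males (SD, n = 3 each, difference -4.25 ± 0.49, log2, SE, limma adjusted p = 0.0001). The gluconeogenesis gene pck1 (-2.76 ± 0.62), the mitochondrial carrier gene ucp1 (-1.34 ± 0.22) and the transcription factor gene klf9 (-1.06 ± 0.37) passed with adjusted p of 0.00326, 0.000637 and 0.029. Under both rescalings me1 and pck1 passed, ucp1 passed under quantile normalization alone, and klf9 under neither.

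Deiodinases are selenoproteins, so genes of selenocysteine insertion and of other selenoproteins were included. Of 8 tested genes of selenoprotein synthesis, 4 passed as lower in females (trnau1apa, eefsec, trnau1apb and sephs2, itself a selenoprotein and counted in the next list too) and 1 as higher, rpl30, a ribosomal protein gene (0.81 ± 0.14, limma adjusted p = 0.000829). Under trimmed-mean scaling and quantile normalization those 4 did not pass, while rpl30, secisbp2 and sephs1 passed as higher. Of 26 tested rows of other selenoproteins, 20 passed as lower in females and 0 as higher, with a median of -0.89 (log2). They were led by gpx4a (-1.897 ± 0.203, adjusted p = 8e-05), selenow1 (-1.71 ± 0.19, 8.8e-05) and selenot1a (-1.13 ± 0.17, 0.000408). Under trimmed-mean scaling 5 of the 26 passed as lower and 1 as higher, against 1682 and 1401 of all 11389 genes. Under quantile normalization 4 passed as lower and 3 as higher, against 1441 and 1585 of all 11389 genes. The genes gpx4a and selenow1 were lower in each.

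**Figure D5:**
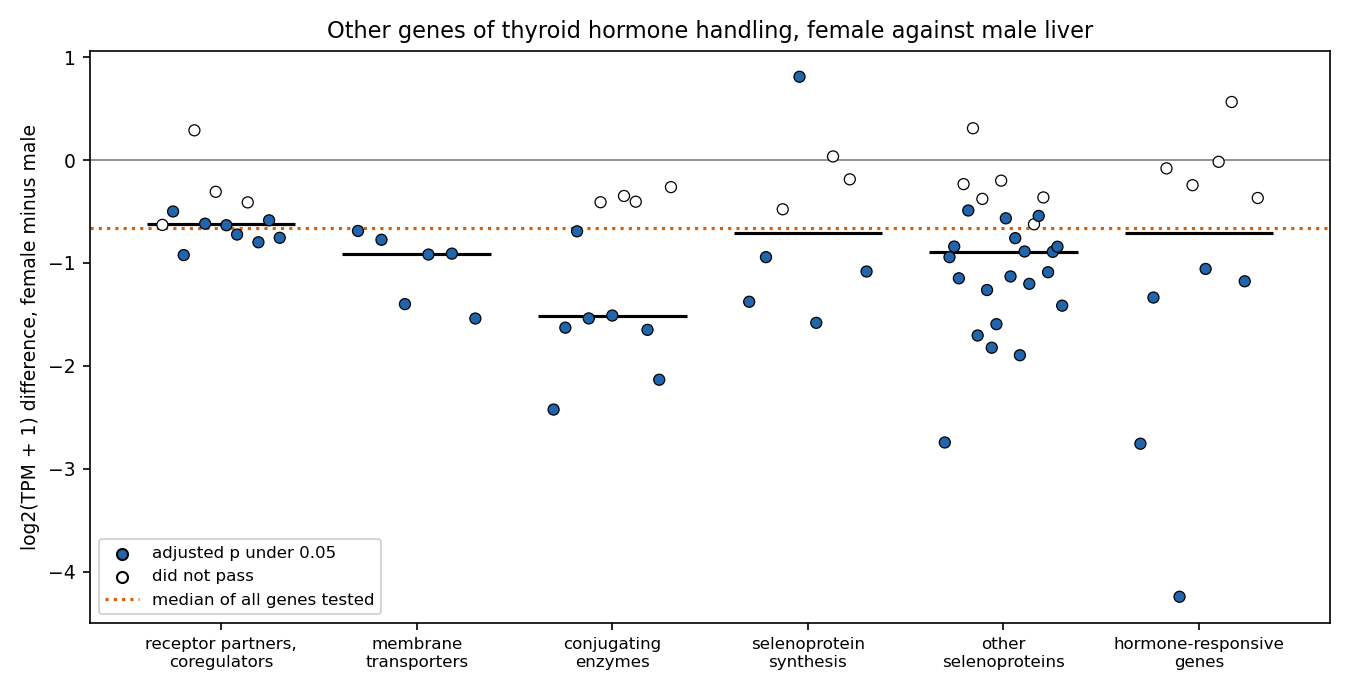
Difference in log2(TPM + 1), female minus male over both treatments, for each tested gene of 6 lists of thyroid hormone handling, with filled points for an adjusted p under 0.05, a line at each list's median and a dotted line at the median of all genes tested (-0.66). List medians run from -0.62 for receptor partners to -1.51 for conjugating enzymes with deposited TPM, and calls of most lists fell away under trimmed-mean scaling, where 0 receptor partners and 4 conjugation genes passed as lower. Over all 11389 genes that scaling gave 1682 lower.

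In the BPAF comparisons and in the interaction 0 genes of these lists passed. The smallest p among them in males were those of ugt1a1 (0.94 ± 0.30, log2, SE) and slc7a8a (0.93 ± 0.34), both with a limma adjusted p of 0.692. In females sult1st1 had a difference of -1.63 ± 0.41 and tefa, a clock-output transcription factor gene, one of -1.003 ± 0.383, both with an adjusted p of 1. The conjugation list had a median of 0.36 in males against 0.24 over all genes tested, and 0.11 in females against -0.01.

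Genes that mark the thyroid follicle and the pituitary, where the hormone and its stimulating hormone are made, were low. The thyroglobulin gene tg ranged from 0 to 7.53 TPM, with its highest value in BPAF male replicate 1, and duox from 0 to 2.7 TPM. The pituitary genes tshba and cga reached 0.32 and 0.18 TPM, and pax8 and nkx2.4b were at 0 in all 12 libraries. Of 11 listed rows of this kind, 1 was tested, hhex, a gene that liver also expresses. It passed as lower in females (-0.69 ± 0.24, log2, SE, limma adjusted p = 0.0254) with deposited TPM, and under neither rescaling.

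Markers of several cell types differed between the sexes, most of them lower in females and those of ovary higher. Of 15 tested rows of hepatocyte markers, 13 passed as lower in females over both treatments (median -1.57, log2). The 15 rows summed to 61870 to 86000 TPM in female libraries and 173500 to 254300 TPM in male libraries. Intestine markers passed as lower for 10 of 11 (summed 328 to 837.8 TPM in females and 1548 to 8978 TPM in males). Erythrocyte markers did so for 9 of 9 rows, and ovary and germline markers passed as higher for 6 of 8. The ovary list summed to 186.9, 3.41 and 13.79 TPM in BPAF females and 155, 62.99 and 13.93 TPM in DMSO females. Male libraries had 0.41 to 9.2 TPM, so BPAF female replicate 2 lay inside the male range. With male levels this low, tested ovary markers may have met the filter mainly through female libraries. Some female excess may thus be built into their calls. Of all 11389 genes tested, 55.4% passed as lower in females and 449 genes as higher, so lower calls were common beyond these markers. Under trimmed-mean scaling 8 hepatocyte, 4 intestine and 5 erythrocyte markers passed as lower and 6 ovary markers as higher, with 1 hepatocyte marker turning to higher. Over all 11389 genes that scaling gave 1682 lower and 1401 higher. Within males, all 11 tested intestine markers stood higher with BPAF and 0 of them passed. Most of all genes tested also stood higher in that comparison, since 21.2% lay below the thrb difference of 0.02 (log2). The median of these markers was 1.33, against 0.24 over all genes tested (log2), both with deposited TPM. Their summed level was 2500, 2000 and 8978 TPM in BPAF males and 1548, 1798 and 2522 TPM in DMSO males. For 3 of the 13 marker lists the sums of BPAF males lay wholly apart from those of DMSO males. The levels of dio3b and thrab did so too. With 3 libraries in each group, such a separation gives an exact permutation test no p below 0.1. How many of all genes separate in this way was not counted, so the number of members and lists that do so is not read as a result. Testis markers (10 genes) summed to 32.29, 48.97 and 24.22 TPM in BPAF males and 11.24, 22.33 and 21.83 TPM in DMSO males. Skeletal muscle markers (6 genes) summed to 39.07, 5.14 and 8.78 TPM in BPAF males and 3.92, 1.64 and 2.83 TPM in DMSO males. Brain and glia markers summed to 0.54, 0.14 and 0.15 TPM in BPAF males and 0.02, 0.03 and 0 TPM in DMSO males. All 3 marker sums were higher with BPAF, as thrab was, while dio3b was lower. The number of genes at or above 1 TPM was also higher in each BPAF male library than in each DMSO male library. Its part in these separations was not tested. Brain and glia sums and thrab levels were at 0.54 TPM or less in every male library. Of the pathway lists, the conjugation genes were also apart, summing to 313.3 to 340.3 TPM in BPAF males and 174.5 to 311 TPM in DMSO males. Exocrine pancreas markers summed to 133.2 to 487.5 TPM in BPAF males and 161.5 to 697.2 TPM in DMSO males. The part of these markers in the member differences was not tested.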

How the data were processed

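RNA of zebrafish liver was sequenced as 12 libraries on an Illumina platform after TRIzol extraction and TruSeq library preparation, per the labels' protocols. The authors deposited 1 table of genes by libraries, whose header names no unit. The values of the listed genes have decimals and sum to 978504.61 to 992375.41 per library, so they were taken as TPM, transcripts scaled by the authors to gene length and to a fixed sum per library. The submitters' processing notes list HISAT2 2.1.0, RSEM and Cufflinks but no role for them. The sources used here name no genome build, annotation or strand setting. Each of the 12 library columns matched 1 sample. The table also held a column for each of the 4 groups, taken as the authors' group mean and not used in the fits. With these, 0 columns were left unassigned.

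The members, gene lists and tests were chosen with earlier results of these data known. Genes at 1 TPM or more in at least 3 libraries were tested (11389 of 32520) on the log2(TPM + 1) scale, using limma 3.58.1 (R 4.3.3) with a trend of variance on mean level, 4 group means and 8 residual degrees of freedom. Contrasts were BPAF against DMSO in each sex, the interaction, and female against male within each treatment and over both, and p-values were adjusted by Benjamini-Hochberg over all genes tested. The procedure was run on simulated data with independent noise and with neither sex differences nor replicate pairing. That run therefore cannot speak to those features of the data. A count test was foreseen in case of counts and did not apply to TPM. Exact permutation tests used SciPy 1.17.1 in Python 3.11.15, and tables pandas 2.3.3.

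All members are named whatever their result. From each list the text names at most 4 called genes per direction with the smallest p, or at most 2 that did not pass. Of 111 pathway genes 100 had a row, and of 122 marker genes 120. Replicate numbers come from the labels, which do not say what they mark. Deviations from the group mean correlated in every same-numbered male pair (r = 0.327, 0.347 and 0.376), so the numbers were read as pairing males, while females gave 0.226, 0.0526 and 0.104 and were not read as paired. The main fits used no pairing in either sex. For BPAF against DMSO, the block alternative joined same-numbered libraries within each sex, females included. Alternatives were pseudocounts of 0.1 and 5, no filter, a filter at 5 TPM, trimmed-mean scaling (30% of ratios and 5% of levels trimmed), quantile normalization, TPM rescaled without the 7 vitellogenin genes, only the groups compared, the replicate number as a block, and leaving out each library. Results of some genes that this rule would name are not reported here.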

Additional observations from a re-analysis of the deposited data

How the results depend on the processing

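Across alternatives, the members' own differences kept direction and side of the threshold in 636 cases, lost a call in 37, gained one in 18 and turned in sign in 40. Genes called for BPAF in males numbered 6, against 1 with pseudocount 0.1, 10 with pseudocount 5, 73 without filter, 1 with a filter at 5 TPM, 1 under trimmed-mean scaling, 1 under quantile normalization, 3 without vitellogenins, 0 with only the groups compared, 2 with the replicate block, and 0 to 5 without 1 library (0 without male DMSO replicate 1 or 2). For BPAF in females no filter gave 3 in place of 0. For the interaction both pseudocounts gave 1 and no filter 12 in place of 0, and leaving out 1 library gave 0 to 1. Among DMSO fish, 2655 genes differed by sex, against 1639 without filter, 1004 under trimmed-mean scaling (433 higher and 571 lower in females), 890 under quantile normalization (488 and 402), 1092 without vitellogenins (254 and 838), and 909 to 3199 without 1 library (909 without female DMSO replicate 1, 1277 and 1447 without male DMSO replicate 1 or 2, 1591 without female DMSO replicate 3). The 2 members called there became 4 with pseudocount 0.1 or the replicate block, 1 under each rescaling (trimmed-mean, quantile, without vitellogenins) and 1 to 4 without 1 library. Among BPAF fish, 5424 genes became 3146 with the filter at 5 TPM, 645 under trimmed-mean scaling (396 higher and 249 lower), 678 under quantile normalization (372 and 306), 2747 without vitellogenins (243 and 2504), and 2919 to 5412 without 1 library (2919 without female BPAF replicate 3, 3114 without male BPAF replicate 1). The 4 members called became 1 under trimmed-mean and quantile scaling and 3 to 5 without 1 library. Over both treatments, 6762 genes became 3679 with the filter at 5 TPM, 3083 under trimmed-mean scaling (1401 higher and 1682 lower), 3026 under quantile normalization (1585 and 1441) and 5873 to 6884 without 1 library, and the 5 members called became 3 of the 3 still tested, 2, 2 and 4 to 5. Signs turned for BPAF in males for thrb with pseudocount 5 (-0.024), under trimmed-mean scaling for dio1 (-0.091), dio2 (-0.12), thraa (-0.10) and thrb (-0.25), and under quantile normalization for thraa (-0.079) and thrb (-0.22). The ttr interaction turned to 0.47 and 0.14 under these scalings. The female minus male difference of thraa turned to 0.13 and 0.17 in DMSO fish and 0.062 and 0.091 over both treatments under trimmed-mean and quantile scaling, and to 0.0097 in BPAF fish under quantile normalization. Leaving out 1 library gave BPAF differences in males of -0.36 to 0.86 for dio2, -0.030 to 0.51 for thraa, -0.39 to 0.46 for thrb and -0.48 to 0.31 for ttr. In females they were -0.013 to 0.87 for dio2, -0.15 to 0.24 for thrb and -0.22 to 0.24 for ttr, and for the interaction -0.40 to 0.81 for dio2, -0.39 to 0.46 for thrb and -0.37 to 0.43 for ttr. The log2 ratio of dio1 to dio3b was 7.36 and 2.47 in BPAF females and 7.36 and 2.71 in DMSO females with 0.1 and 5 TPM added, and 3.59 in BPAF males with 5. Without 1 library it was 4.43 to 4.61 in BPAF females, 4.49 to 5.05 in DMSO females, 4.19 to 4.96 in BPAF males and 2.70 to 3.89 in DMSO males. With the replicate block the dio3b difference in males had an adjusted p of 0.353, and its interaction 0.933, or 0.848 with blocks within each sex, an alternative chosen after seeing the data. Apart from dio1 and dio2 in DMSO fish, which passed with the block (limma adjusted p = 0.0218 and 0.023), the block changed no member's call. For the sex comparisons and the interaction, that block joined same-numbered libraries of both sexes. Deviations of same-numbered female and male libraries within a treatment had r from -0.173 to 0.149. These added calls rest on a pairing across the sexes that the labels do not give. The cause of these changes was not tested. Depth is unknown for TPM, so no limit can be set for dio3b in females or thrab.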
